A study of Mus musculus with 80 samples.

Results

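The last stretch of chemical reprogramming of mouse fibroblasts was followed through H3K4me3 at D12, the final sampled day, and in the iPSCs that resulted. All H3K4me3 peaks of both stages on chromosomes 1 to 19, X and Y were taken, 26290 at D12 and 35333 in iPSCs, together 61623 of the 710560 peaks in the 40 lists of the study. The starting cells were embryonic fibroblasts (MEFs) of 129XOG2 embryos at E13.5. The OG2 background carries a GFP reporter transgene built from regulatory sequence of Pou5f1, so peaks at Pou5f1 may hold reads of the transgene. D12 cells had been cultured in reprogramming medium, while iPSCs (riPSCs in the labels) had been kept on a feeder layer of a kind not given, in medium with N2, B27, LIF, CHIR99021 (an inhibitor of GSK3) and PD0325901 (an inhibitor of MEK). The step therefore covers a change of medium and culture as well as of stage, and these cannot be told apart. Each stage had 2 CUT&Tag libraries but 1 deposited peak list, so no value has a replicate spread and no test between stages was possible. CUT&Tag uses an antibody to bring a transposase to a histone mark, where it cuts and tags the DNA. In such bulk lists, fewer cells that carry a peak and less of the mark per cell cannot be told apart.

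H3K4me3 is trimethylation of lysine 4 of histone H3, laid down by SET1 and MLL complexes around the starts of genes that are active or poised. It is recruited to CpG-rich DNA in particular, and in pluripotent cells it shares many developmental promoters with H3K27me3, the Polycomb mark, in the state called bivalent. Broad H3K4me3 domains are known at genes of cell identity, and weaker H3K4me3 is also found at active enhancers beside H3K27ac.

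The iPSC list was the longer of the pair although it was the shallower. Its genome-wide background, solved from the peaks' own fold enrichments and p-values, was 1.96 fragments per position, against 2.92 at D12 and 2.72 to 4.06 at the other stages. The median peak had 43 fragments at its summit in iPSCs and 73 at D12. Depth limits which weak peaks are listed and how wide they are, and its part in the differences below was not tested.

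A lost peak is a D12 peak that no iPSC peak overlaps, and a gained peak is an iPSC peak that no D12 peak overlaps, by at least 1 bp. Of the D12 peaks, 7158 were lost, 27.2% (95% Wilson interval 26.7 to 27.8, counting error only), and 19132 were kept. Of the iPSC peaks, 14944 were gained, 42.3% (41.8 to 42.8), and 20389 were kept. At the 6 earlier steps of 2 days each, 7.30% to 13.7% of peaks were lost and 7.67% to 21.3% were gained, so both shares were higher at the final step than at any earlier one. With both lists cut to the 26290 peaks of highest −log10 p-value, 33.8% were lost and 30.7% gained, and the gained peaks numbered 8077. At equal length the earlier steps lost 9.18% to 16.4% and gained 8.74% to 16.3%.

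**Figure D1:**
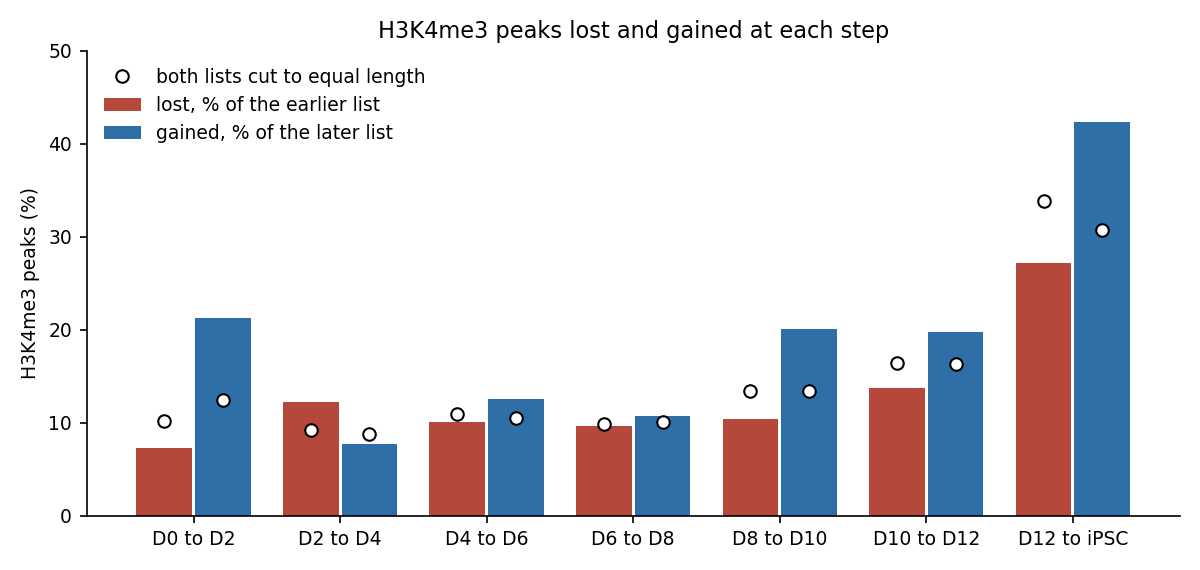
Share of H3K4me3 peaks lost (red, percent of the earlier list) and gained (blue, percent of the later list) at each of the 7 steps, with open circles for both lists cut to equal length. The final step lost 27.2% and gained 42.3%, both above every earlier step, and at equal length the shares were 33.8% and 30.7%.

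Strong peaks stayed and weak ones turned over. When each list was ranked by the authors' −log10 p-value, 6 of the strongest 5258 D12 peaks were lost (0.114%), and 67.6% of the weakest 5258. In iPSCs, 6.81% of the strongest 7066 peaks were gained and 78.3% of the weakest 7067. Each list was held against the other whole list, and these differ in length. Lost peaks had a median width of 605 bp and gained peaks 524 bp, against 1232 bp and 1012 bp for kept peaks at D12 and in iPSCs. Within the D12 list the median fold enrichment was 5.04 at lost and 7.13 at kept peaks, and within the iPSC list it was 4.95 at gained and 5.91 at kept peaks. By chromosome, losses ranged from 21.4% on X to 32.9% on chromosome 10, leaving aside Y with 26 D12 peaks.

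Most peaks that turned over lay away from gene ends. Distances were measured to gene ends, meaning the annotated starts of 17491 of 21775 protein-coding genes and, where no start was annotated, a bound of the gene. Of lost peaks 11.1% (10.4 to 11.9) lay within 1 kb of a gene end, and of gained peaks 7.15% (6.75 to 7.58). Of kept peaks, 64.6% at D12 and 64.3% in iPSCs did. The median distance was 19.3 kb for lost and 24.1 kb for gained peaks. More than 50 kb from any gene end lay 26.9% of lost and 32.0% of gained peaks, but 11.7% of kept D12 peaks. Away from a gene end is not outside genes, since 47.3% of lost and 57.7% of gained peaks lay within the bounds of a protein-coding gene.

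**Figure D2:**
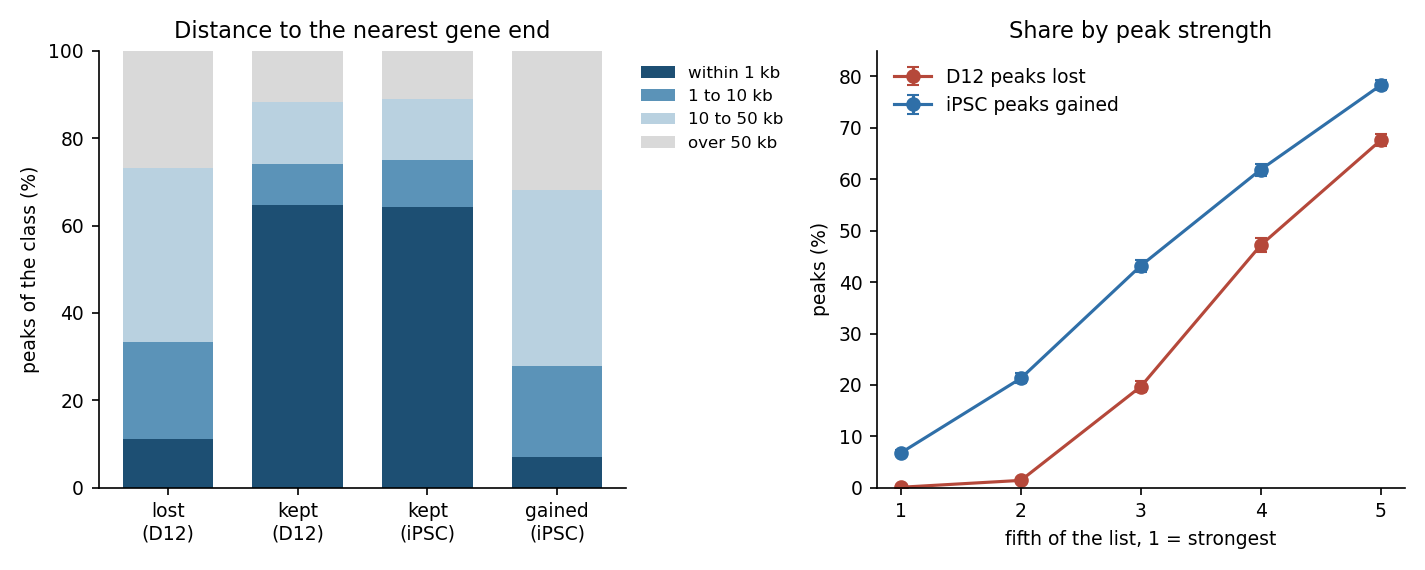
Left, percent of peaks in each class by distance to the nearest gene end; right, percent of D12 peaks lost and of iPSC peaks gained in 5 equal bins of the list by −log10 p-value, with 95% Wilson intervals. Peaks within 1 kb make up 11.1% of lost, 7.15% of gained and over 60% of kept peaks, and loss runs from 0.114% in the strongest bin to 67.6% in the weakest.

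Kept regions were on the whole somewhat narrower in iPSCs. Peaks of both lists that overlap were joined into 19100 kept regions, whose covered length in iPSCs had a median of 0.911 of that at D12 (log2 −0.14, quartiles −0.46 and 0.13). At the earlier steps this median log2 ratio lay between −0.05 and 0.06. At least 2-fold narrowing was found in 1443 regions (7.55%) and at least 2-fold widening in 548 (2.87%). Regions within 1 kb of a gene end had a median log2 ratio of −0.18, and those farther away 0.01. The spread was larger farther than 1 kb from a gene end, where 8.75% narrowed and 6.52% widened by at least 2-fold, than within 1 kb, where the shares were 6.91% and 0.888%. Split into 5 equal groups by mean log width over both lists, the regions had medians from −0.16 to −0.11. They differed in spread, since 3.46% of the widest and 14.2% of the narrowest group narrowed by at least 2-fold, and 0.183% and 7.51% widened that far.

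**Figure D3:**
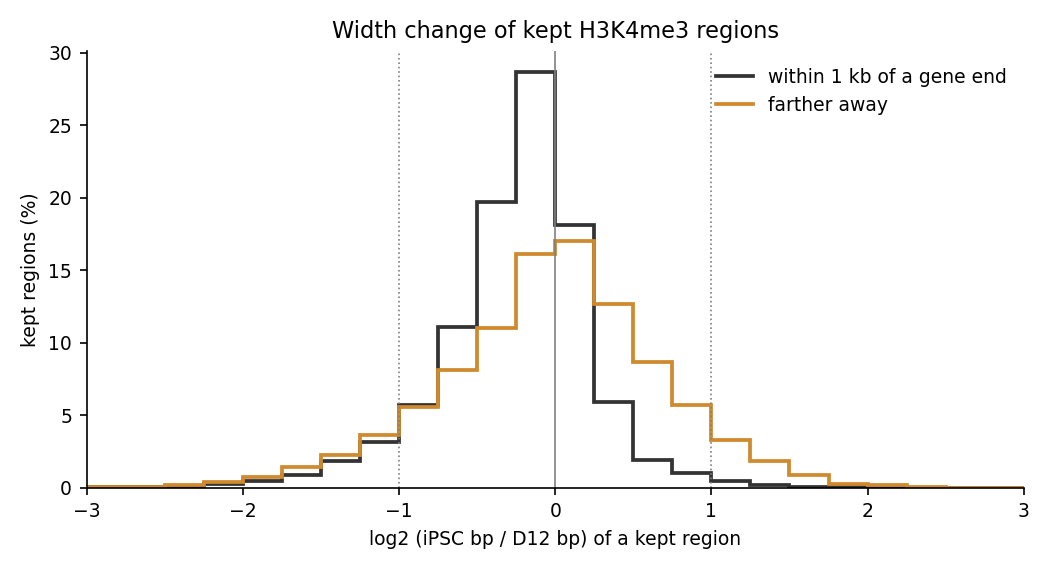
Distribution of the log2 ratio of covered length, iPSC over D12, for kept regions within 1 kb of a gene end (black, 12381 regions) and farther away (orange, 6719 regions), with dotted lines at a 2-fold change. The black curve peaks to the left of 0, with a median of −0.18, and the orange curve is centred near 0 and broader.

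Some kept regions were split. In 1242 kept regions (6.50%), 1 D12 peak became more than 1 iPSC peak, against 0.539% to 1.44% of regions at the earlier steps, and only 28 regions joined the other way. The 1198 regions split into exactly 2 had a median gap of 416 bp (quartiles 333 and 550). A gene end lay inside the gap in 366 of them (30.6%, 28.0 to 33.2), and within 500 bp of its centre in 602 (50.3%). Of all 19100 kept regions, 12381 lay within 1 kb of a gene end, a wider measure than those used for the gaps. The start of an active gene is known to be depleted of nucleosomes. Whether this or the lower depth of the iPSC list bears on the splits was not tested. With peaks less than 1 kb apart joined before the comparison, the median log2 ratio was −0.09.

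Other marks were read at the same peaks from the lists of the same stages. H3K27ac marks active promoters and enhancers, H3K18la is histone lactylation, also found at active genes, and H3K9me3 marks heterochromatin. Of lost peaks, 50.0% (48.8 to 51.1) overlapped an H3K27ac peak at D12 and 5.53% (5.03 to 6.09) in iPSCs. Gained peaks overlapped H3K27ac in 13.1% at D12 and 25.2% in iPSCs. These values sit beside H3K27ac lists of 34185 peaks at D12 and 20479 in iPSCs, and kept D12 peaks also went from 77.3% to 44.2%.

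H3K18la was found at 0.944% of gained peaks at D12 and at 16.6% (16.0 to 17.2) in iPSCs. At kept D12 peaks it went from 34.5% to 41.9%, and at lost peaks from 10.8% to 3.56%, while the H3K18la list grew from 8616 to 14135 peaks. H3K27me3 at gained peaks went from 5.53% to 15.2%, and at gained peaks within 1 kb of a gene end from 18.1% to 37.8% (34.9 to 40.7). At lost peaks near gene ends it went from 9.42% to 22.6%. Its list grew from 9972 to 15805 peaks, and kept D12 peaks went from 13.0% to 24.1%. H3K9me3 at gained peaks went from 8.29% to 12.7%, while its list grew from 8657 to 19357 peaks. In iPSCs it was at 2.43% of gained peaks within 1 kb of a gene end and 13.4% of those farther away. Kept iPSC peaks had it in 3.51% within 1 kb and in 19.8% farther away, a higher share than gained peaks. All 3 of these lists were longer in iPSCs, and what that contributes was not tested.

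**Figure D4:**
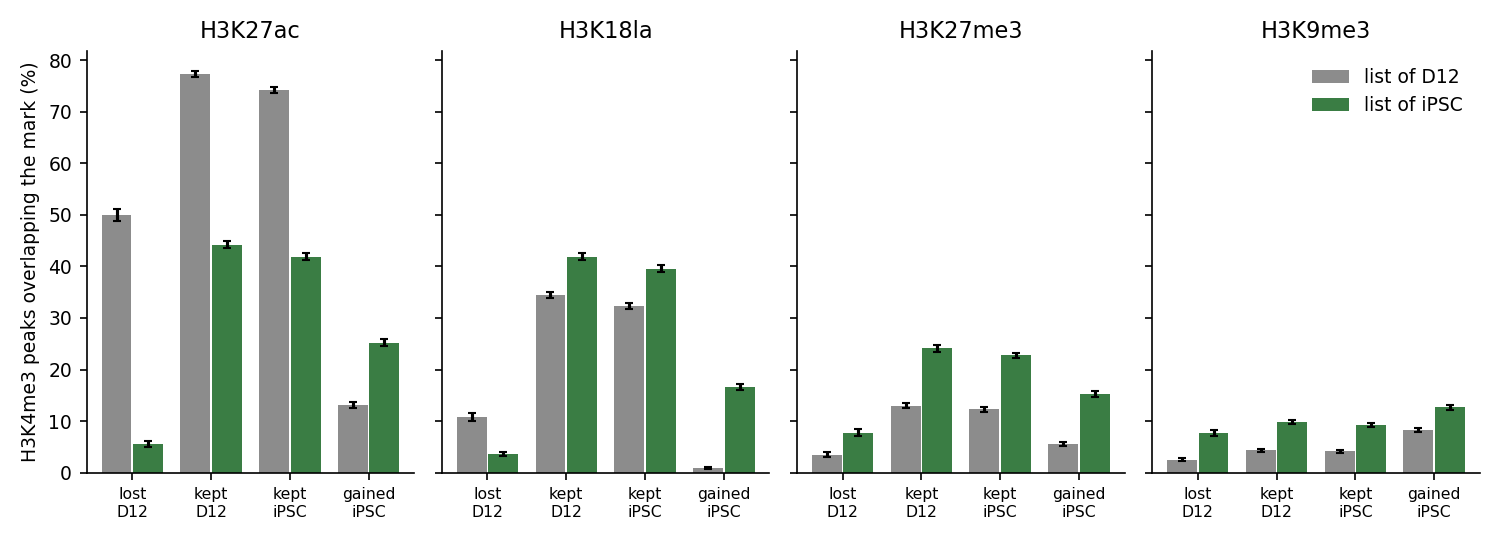
Percent of lost, kept and gained H3K4me3 peaks that overlap a peak of each other mark in the D12 list (grey) and the iPSC list (green), with 95% Wilson intervals. H3K27ac goes from 50.0% to 5.53% at lost peaks, and H3K18la from 0.944% to 16.6% at gained peaks.

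The earlier stages show where the peaks came from. Of lost peaks, 59.0% had been listed at D10 already but 17.0% at D0, and 37.1% were seen at D12 alone among D0 to D12. Most lost peaks thus had no listed counterpart in the starting fibroblasts. Of gained peaks, 86.2% overlapped no H3K4me3 peak at any of D0 to D10. When peaks counted as kept only if the D12 and iPSC peaks shared 50% of each, 19518 peaks were gained, and 31.5% of them overlapped an earlier peak, against 13.8%. Near gene ends the picture differed, since 48.6% (45.7 to 51.6) of gained peaks within 1 kb had been listed at an earlier stage, against 11.1% farther away.

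A gene was called marked when an H3K4me3 peak lay within 1 kb of its end. Of 21775 protein-coding genes, 13614 were marked at D12 and 13759 in iPSCs. Kept were 13014 genes, 745 were gained (3.42% of all genes) and 600 were lost (2.76%). In 723 of the gained genes and 539 of the lost genes, every peak at the gene end was itself a gained or lost peak. At equal list length 496 genes were gained and 1023 lost, so that the balance between gain and loss turned round. All 600 lost genes remained lost there, and the 496 were all among the 745, since only the iPSC list was shortened. Among peaks with −log10 q-value of at least 10, each held against the whole other list, 445 genes were gained and 470 lost.

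Other marks were read at the same genes. Of gained genes, 24.4% had H3K27me3 at D12 and 47.1% (43.6 to 50.7) in iPSCs, against 13.3% and 24.7% of kept genes. H3K18la was at 1.07% of gained genes at D12 and at 24.4% in iPSCs, and at 47.5% and 49.7% of kept genes. Of lost genes, 45.7% had H3K27ac at D12 and 7.67% in iPSCs, against 84.2% and 49.7% of kept genes. H3K27me3 at lost genes went from 11.7% to 28.3%, close to kept genes, which went from 13.3% to 24.7%. Among gained genes 395 (53.0%) had been marked at some stage before D12, 116 of them at all 6, so these were absent from the D12 list and listed again in iPSCs. Among lost genes 285 (47.5%) had been marked at every stage from D0.

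Base composition separated kept promoters from the rest. Promoter windows of 300 bp, from 250 before to 50 after a RefSeq start (GRCm38.p6), were matched for 10512 kept, 548 gained, 446 lost and 5985 unmarked genes. A window was called CpG-rich at a GC content of at least 50% and at least 0.6 of the CpGs its base content predicts. By this measure 72.6% (71.7 to 73.4) of kept, 25.2% (21.7 to 29.0) of gained, 26.0% (22.2 to 30.3) of lost and 1.85% of unmarked promoters were CpG-rich, against 45.7% of all 17491. The median window held 22 CpGs for kept, 9 for gained, 7 for lost and 2 for unmarked genes. Gained genes with H3K4me3 at an earlier stage were CpG-rich in 35.7%, those without in 13.0%. The 5 windows below, of genes described later, show this range, with each CpG in capitals.
Sox2, kept, chr3:34649745-34650044, plus strand, 27 CpGs: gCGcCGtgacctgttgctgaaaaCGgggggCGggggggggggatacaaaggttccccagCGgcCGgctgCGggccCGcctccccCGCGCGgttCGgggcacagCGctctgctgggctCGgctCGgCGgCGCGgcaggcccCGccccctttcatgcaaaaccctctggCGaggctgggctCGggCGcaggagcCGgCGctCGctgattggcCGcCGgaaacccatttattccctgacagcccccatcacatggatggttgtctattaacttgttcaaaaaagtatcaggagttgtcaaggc
Hormad1, gained, chr3:95559427-95559726, plus strand, 24 CpGs: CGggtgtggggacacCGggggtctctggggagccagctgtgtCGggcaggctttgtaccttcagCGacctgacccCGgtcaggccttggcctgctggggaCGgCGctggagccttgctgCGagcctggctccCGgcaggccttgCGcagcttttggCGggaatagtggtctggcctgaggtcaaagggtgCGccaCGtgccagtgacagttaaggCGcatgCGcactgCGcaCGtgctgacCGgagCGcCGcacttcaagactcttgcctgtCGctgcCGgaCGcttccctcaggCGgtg
Nanog, gained, chr6:122707239-122707538, plus strand, 4 CpGs: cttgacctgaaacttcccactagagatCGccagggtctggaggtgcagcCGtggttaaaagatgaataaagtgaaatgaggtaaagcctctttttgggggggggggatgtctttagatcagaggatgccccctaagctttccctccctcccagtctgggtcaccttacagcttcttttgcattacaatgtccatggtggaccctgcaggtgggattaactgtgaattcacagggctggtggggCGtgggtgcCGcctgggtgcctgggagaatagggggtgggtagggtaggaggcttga
Irf7, lost, chr7:141266375-141266674, minus strand, 7 CpGs: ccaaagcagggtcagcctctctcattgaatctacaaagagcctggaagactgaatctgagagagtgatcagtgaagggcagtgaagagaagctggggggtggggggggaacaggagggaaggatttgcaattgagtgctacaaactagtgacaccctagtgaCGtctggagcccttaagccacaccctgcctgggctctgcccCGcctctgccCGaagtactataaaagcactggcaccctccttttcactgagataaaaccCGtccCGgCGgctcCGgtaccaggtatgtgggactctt
Hnf4a, lost, chr2:163506607-163506906, plus strand, 4 CpGs: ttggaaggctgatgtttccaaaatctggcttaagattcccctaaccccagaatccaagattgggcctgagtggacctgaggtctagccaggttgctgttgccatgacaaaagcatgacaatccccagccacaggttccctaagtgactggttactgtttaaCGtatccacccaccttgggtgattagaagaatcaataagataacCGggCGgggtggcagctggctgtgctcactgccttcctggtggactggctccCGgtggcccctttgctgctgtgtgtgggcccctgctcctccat

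Fixed motifs were searched on both strands of the same windows. The GC box GGGCGG was in 68.2% of kept, 39.1% of gained and 40.8% of lost windows, and in 46.3% of all. TATAAA was in 6.38% of kept, 9.67% of gained, 12.1% of lost and 26.0% of unmarked windows. The octamer ATGCAAAT, bound by POU factors such as OCT4, was in 1.46% (0.742 to 2.85) of gained and 2.91% (1.71 to 4.92) of lost windows, and in 1.71% of all. TGANTCA, the AP-1 letters, was in 6.57% (4.78 to 8.96) of gained and 7.62% (5.51 to 10.5) of lost windows, with overlapping intervals, and in 7.08% of all. CACGTG was in 8.03% and 7.40% of gained and lost windows (7.90% of all), and TTCCCGCC in 2.74% and 2.69% (2.89% of all). GGAATG was in 13.9% and 17.5% (13.4% of all), and TCAAGGTCA in none of the gained and 0.897% of the lost (0.332% of all). The intervals of gained and lost windows overlapped for each of these motifs, and for GC boxes both lay below that of kept windows.

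Genes of the pluripotency network were nearly all marked before the final step. Of 30 listed genes, 26 were marked at D12 and 29 in iPSCs. Of these 25 were kept, 4 gained (13.3%, beside 3.42% of all genes) and 1 lost (3.33%, beside 2.76%). Nanog, the homeodomain factor of naive pluripotency, was gained, with a 686 bp peak at chr6:122707104-122707789 over its start. This peak was weak, at fold enrichment 2.05 and −log10 q 6.49, and the call was lost at equal length and at −log10 q of at least 10. Dppa4, a nuclear protein of pluripotent cells, was gained with 805 bp and was lost in the same way. Gdf3, a TGF-beta family ligand, was gained with 1032 bp and Tcl1, a coactivator of AKT, with 962 bp, and both stayed gained under these limits. Each of the 4 had an H3K4me3 peak at no earlier stage. Tcl1 and Gdf3 carried H3K27ac at both stages, while Nanog and Dppa4 had no listed peak of any other mark. Dppa3, expressed in germ cells and naive cells, was the 1 gene lost, with 1032 bp at D12, after being marked from D2 on.

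The width of the kept pluripotency genes moved both ways. Their median log2 ratio was −0.25, beside −0.18 over all kept genes, and 3 narrowed and 2 widened by at least 2-fold. Of all 13014 kept genes, 853 (6.55%) narrowed and 127 (0.976%) widened that far. Prdm14, which holds naive cells from differentiation, widened from 814 bp to 2780 bp, and Utf1, a chromatin protein of embryonic stem cells, from 925 bp to 2473 bp. Pou5f1, encoding OCT4, covered 3095 bp at D12 and 4131 bp in iPSCs, with the transgene as a limit. Sox2, its partner, was nearly the same at 2031 bp and 1963 bp. Zfp42 (also called Rex1) narrowed from 2287 bp to 1123 bp, Tbx3 from 4466 bp to 1983 bp, and Esrp1, an epithelial splicing factor, from 3196 bp to 1430 bp. The D12 length of Tbx3 includes a separate 957 bp peak that no iPSC peak overlapped.

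The formative and primed list, of genes that rise when naive cells move toward differentiation, went from 10 to 14 of 15 genes. The 26.7% gained stand beside 3.42% of all genes. Otx2, a factor of formative cells, was gained with 1392 bp, T (brachyury, of the primitive streak) with 1592 bp, and the Nodal inhibitors Lefty2 and Lefty1 with 896 bp and 696 bp. Otx2, Lefty1 and Lefty2 had H3K27me3 in iPSCs and not at D12. Otx2 had been marked at D6, D8 and D10, T at D2, D4, D8 and D10, Lefty2 at D0 and Lefty1 never. At equal length the gain of Lefty1 was lost and the other three held. Dnmt3l, a cofactor of DNA methylation, covered 418 bp at D12 and 1402 bp in iPSCs, in peaks that did not overlap between the stages.

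Fibroblast marking ended for a further 5 of 28 listed genes, with none gained. The list went from 19 marked at D12 to 14 in iPSCs, and the 17.9% lost stand beside 2.76% of all genes. In a window of 2.5 kb the net change was −2 instead of −5. The genes lost were Col1a1, the main collagen of fibroblasts (1003 bp at D12), the PDGF receptors Pdgfra (2143 bp) and Pdgfrb (938 bp), the mesenchymal factor Prrx1 (1035 bp) and Snai1, a driver of epithelial to mesenchymal transition (1448 bp). All 5 had been marked at every stage from D0 to D12. All 5 also stayed lost at equal length, while Pdgfrb was below −log10 q 10 at D12. Snai1 acquired a listed H3K27me3 peak in iPSCs and the other four had none. Of the 9 genes unmarked at both stages, such as Dcn, Acta2 and Postn, each had been marked at an earlier stage. The 14 kept genes include Twist1, Vim and Fn1. Vim covered 2023 bp and 2030 bp.

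Genes of primitive endoderm, the extraembryonic lineage that forms beside the epiblast, went from 16 to 12 of 20 marked. Gata4, Foxa1, Hnf4a and Pdgfra were lost (20.0%, beside 2.76% of all genes) and none was gained, though with both ends of every gene the net change was −1 instead of −4. Hnf4a, a nuclear receptor of endoderm, had a peak of 781 bp at chr2:163506669-163507449 over the start printed above, with fold enrichment 11.2, and Gata4 a peak of 605 bp, below −log10 q 10. Both were marked at D10 and D12 only, with H3K27ac at D12 and none in iPSCs. Foxa1 and Pdgfra, in contrast, had been marked at every stage from D0 to D12 and had no H3K27ac at D12. Pdgfra belongs to the fibroblast list as well and is counted as lost in both. The 12 kept genes had a median log2 width ratio of −0.64. Foxa2, the pioneer factor of endoderm, narrowed from 3262 bp to 405 bp, and Dab2, an endocytic adaptor, from 2590 bp to 380 bp. H3K27ac at both genes was listed at D12 and not in iPSCs.

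Trophoblast and epithelial genes mostly kept a peak of smaller width. Of 15 trophoblast genes 11 were marked at D12 and 12 in iPSCs. The gain was Bmp4 (1281 bp), 6.67% of the list beside 3.42% of all genes. Gata3 narrowed from 2779 bp to 360 bp, Gata2 from 2732 bp to 472 bp and Cdx2 from 3033 bp to 1062 bp, all 3 transcription factors of the trophectoderm. The D12 length of Gata2 includes a separate 1773 bp peak that no iPSC peak overlapped. At equal length 4 trophoblast genes were lost and 1 gained. Of 24 epithelial genes 22 were marked at D12 and 21 in iPSCs, and 6 of the 20 kept narrowed by at least 2-fold, beside 6.55% of all kept genes. At equal length 5 epithelial genes were lost and 1 gained. The kept epithelial genes that narrowed by at least 2-fold include the simple keratins Krt8 (2290 bp to 941 bp), Krt18 (1751 bp to 407 bp) and Krt19 (2137 bp to 1020 bp). Cdh1, encoding E-cadherin, covered 1493 bp and 1329 bp. The epithelial tight junction genes Cldn6 and Tjp3 were lost (8.33%, beside 2.76% of all genes) and the factor Grhl3 was gained (4.17%, beside 3.42%).

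Germline and meiosis genes, many of them silenced by promoter DNA methylation in somatic cells, had the largest gain in number among the 21 lists. Of 29 genes 6 were marked at D12 and 14 in iPSCs, with 9 gained (31.0%, beside 3.42% of all genes) and 1, Dazl, lost. The gained genes were Sycp1 and Syce1 of the synaptonemal complex, Hormad1 of the meiotic axis, Smc1b of meiotic cohesin, Spo11, which makes meiotic breaks, Stra8 and Meioc, which act at meiotic entry, Stk31 and Rpl10l. Rpl10l covered 1283 bp, Stra8 816 bp, Meioc 811 bp, Smc1b 736 bp and Hormad1 618 bp, and the others 279 to 415 bp. Sycp1, Hormad1, Stk31, Rpl10l and Syce1 were marked at no earlier stage. Hormad1, whose CpG-rich start is printed above, had H3K27me3 at both stages. At equal length 5 of the 9 held (Hormad1, Rpl10l, Smc1b, Stra8 and Syce1). Sycp3, kept, widened from 342 bp to 976 bp.

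Interferon and antiviral genes went from 18 to 13 of 28 marked, with 21.4% lost beside 2.76% of all genes. The genes lost were Irf7, the factor that drives type I interferon (1238 bp), the helicase Ddx60 (878 bp), Herc6 (854 bp), Oasl2 (920 bp), and the guanylate-binding proteins Gbp2 (1209 bp) and Gbp3 (660 bp). The only gain was Zbp1, with 351 bp. All 6 stayed lost at equal length, and Oasl2 and Gbp3 were below −log10 q 10 at D12. Irf7, Ddx60, Herc6, Gbp2 and Gbp3 had been marked at every stage from D0 to D12. Kept members such as Usp18 narrowed (1109 bp to 333 bp), while Irf9 covered 1202 bp and 1458 bp.

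Imprinted genes went from 19 to 21 of 23. Nnat, Dlk1 and Nap1l5 were gained (13.0%, beside 3.42% of all genes) and Grb10 was lost (4.35%, beside 2.76%). Nnat and Nap1l5 held at equal length and Dlk1 did not, and there the direction of the list turned, with 2 genes gained and 4 lost. Nnat had been marked from D0 to D10, and Dlk1 and Nap1l5 from D0 to D6. Cdkn1c, a cell cycle inhibitor, narrowed from 1860 bp to 339 bp and Igf2 from 1679 bp to 744 bp. Of 39 Hox genes 28 were marked at D12 and 26 in iPSCs. Hoxa3, Hoxb7, Hoxc9 and Hoxd3 were lost (10.3%, beside 2.76% of all genes) and Hoxa2 and Hoxb1 gained (5.13%, beside 3.42%). The 24 kept Hox genes had a median log2 width ratio of −0.62, beside −0.18 over all kept genes. Lineage regulators went from 28 to 30 of 36, with 8.33% gained and 2.78% lost. Of the 27 kept, 9 were at least 2-fold narrower, beside 6.55% of all kept genes. Among them was Runx1, the regulator of blood formation, which went from 4693 bp to 802 bp. Its D12 length includes a separate 1060 bp peak that no iPSC peak overlapped. At equal length the Hox list had 9 genes lost and none gained, and the lineage list 8 lost and 2 gained. Clustered protocadherins, whose related copies may make read placement uncertain, went from 29 to 31 of 57, but at equal length 3 were gained and 15 lost. With whole lists 8.77% were gained and 5.26% lost. Many Pcdhg genes share a single gene-end peak, at chr18:37841284-37842816 at D12 and chr18:37841526-37842690 in iPSCs. These genes are therefore not independent counts, and Pcdhgb1 and Pcdhgb2 were kept only through it.

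The remaining lists lost few genes in number. All 19 genes of DNA methylation and chromatin and all 12 marked genes of senescence and cell cycle arrest were marked at both stages, as were 15 of 16 housekeeping genes. Over all protein-coding genes marked at D12, 95.6% were kept, so such counts do not set these lists apart. Glycolysis and lactate genes lost Eno3 of 23 (4 at equal length and at −log10 q of at least 10), and TGF-beta and AP-1 genes lost Fosb of 19. With whole lists these are 4.35% and 5.26%, beside 2.76% of all genes. Of 13 genes of the 2-cell-like state 1, Eif1a, was marked, at both stages, and the others were unmarked at all 8. Some markers of other cells were marked too. Of 8 endothelial genes 5 were marked at D12 and 3 in iPSCs. Cdh5 and Tek were lost (25.0% of the list, beside 2.76% of all genes) and Pecam1 was never marked. Of 8 macrophage and blood genes 1 was marked at each stage (Spi1 lost and Laptm5 gained, 12.5% each, Ptprc never marked). Of 8 neuronal genes 5 were marked at each. The endothelial and neuronal shares at D12, 62.5% each, equal that of all protein-coding genes. The iPSC list held Pou5f1, Sox2 and Zfp42, but so did the D12 list, so these genes do not tell the labels apart. It also held fibroblast genes such as Twist1, Col1a2, Thy1 and Fn1, but not Col1a1, Pdgfrb, Prrx1, Col3a1 or Dcn. The part of feeder cells in the fibroblast genes it held was not tested.

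**Figure D5:**
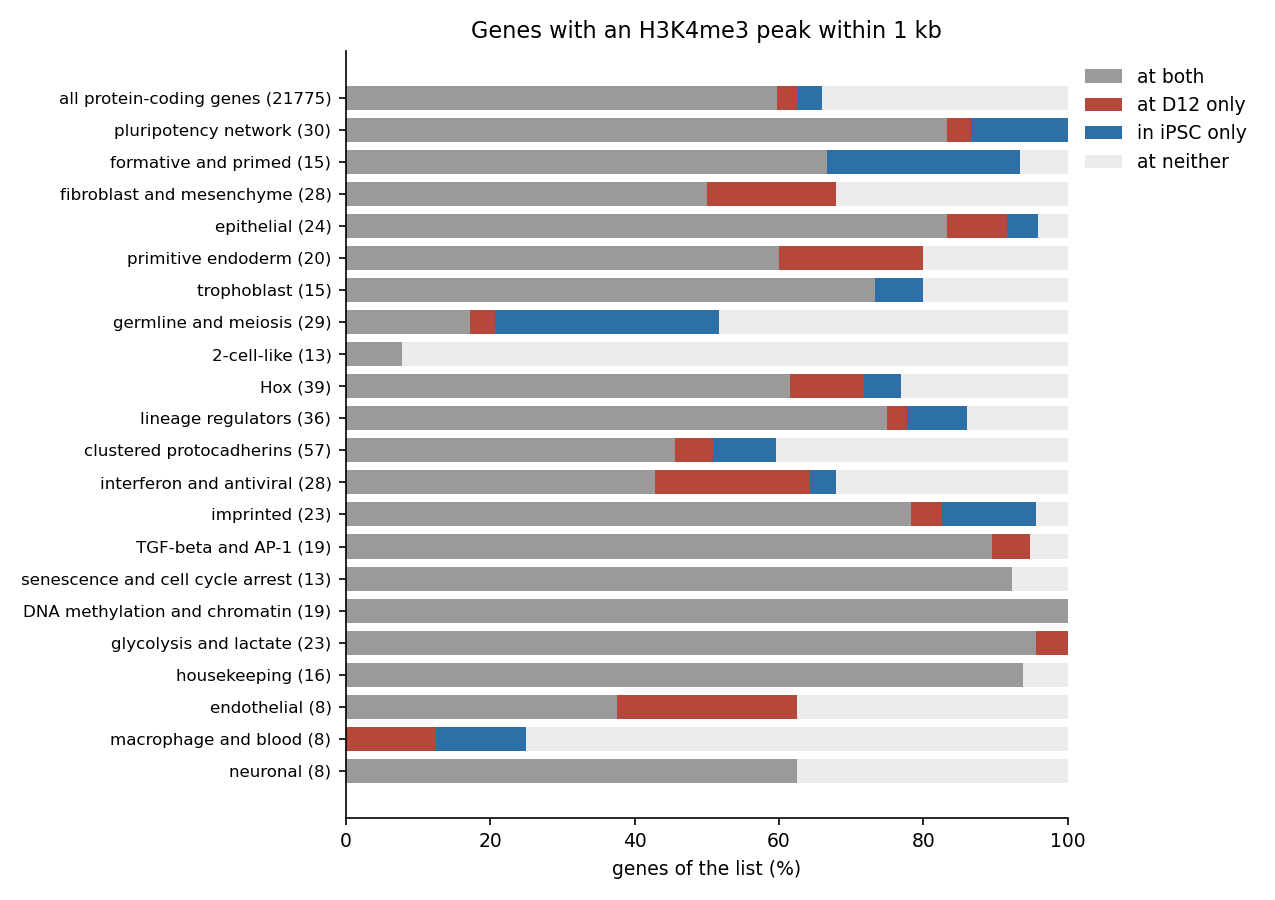
For all protein-coding genes and each gene list (number of genes in brackets), percent with an H3K4me3 peak within 1 kb of the gene end at both stages (grey), at D12 only (red), in iPSCs only (blue) or at neither (light grey). Blue is widest for germline and meiosis (9 of 29) and formative and primed genes (4 of 15), and red for endothelial (2 of 8), interferon and antiviral (6 of 28), primitive endoderm (4 of 20) and fibroblast genes (5 of 28).

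By the authors' fold enrichment, whether or not in a list, the gained genes of highest fold enrichment in iPSCs included Nalcn, Nap1l5, Khdrbs2, Trpm3, Ptpro, Cd34, Slfn8, Marchf4 and Prkcq. Their enrichments lay between 10.1 and 12.7 and their widths between 384 and 842 bp. Of the 10 highest, 9 had been marked at an earlier stage and had H3K27me3 in iPSCs, and these are the 9 named. All of these except Trpm3 and Marchf4 had H3K27me3 at D12 already. Nalcn, a sodium leak channel, had been marked from D2 to D10, and Ptpro, Cd34, Slfn8 and Prkcq at every stage from D0 to D10. The 10 lost genes of highest enrichment at D12 were Daw1, Vmn2r29, Cabcoco1, Pla2g4a, Spata48, Alpk1, Ddx60, Cyp2j6, Hnf4a and Stard13, between 11.2 and 13.6. Of these, 7 had been marked at every stage from D0 to D12, and Cabcoco1, Spata48 and Hnf4a had not. Vmn2r29 belongs to the vomeronasal receptors, a family whose related copies may make read placement uncertain.

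Among kept genes, those that narrowed most were Serpinb6c (2422 bp to 291 bp), Foxa2, Ftl1, the ferritin light chain (2632 bp to 339 bp), Gata3, and Bcor, a corepressor of the variant Polycomb complex (2212 bp to 289 bp). Those whose covered length rose most were Maneal (334 bp to 1735 bp), Klhl34 (543 bp to 2481 bp), Magi1 (337 bp to 1494 bp), Slc18a3, the vesicular acetylcholine transporter (410 bp to 1700 bp), and Adamts4 (581 bp to 2237 bp). The D12 and iPSC peaks of Adamts4 did not overlap, so a lost and a gained peak were compared there and no peak widened. At Slc18a3 the D12 peak was overlapped by an iPSC peak of 1010 bp. The rest of its iPSC length was in separate peaks of 368 bp and 322 bp. In covered length, the narrowed genes went from over 2000 bp to under 500 bp. The others went from under 600 bp to 1494 bp or more.

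Some gained peaks were crowded together. The 1 Mb bin with most of them, chr13 from 66 Mb, held 44 gained peaks beside 9 D12 peaks, 10 of the 44 with H3K9me3 and 24 with H3K27ac in iPSCs. The next, chr4 from 147 Mb, held 41, and 9 of its 15 genes are zinc finger genes, whose related copies may again make read placement uncertain. A gained peak of 1885 bp at chr17:35513209-35515093, just beyond Pou5f1 and 1731 bp from the nearest gene end, that of Tcf19, was among the 10 strongest gained by −log10 p-value, and the transgene limits it too. Some of the strongest peaks carried every mark. The strongest gained peak, chr8:83756743-83757057 (315 bp, fold enrichment 32.1), overlapped a peak of each of the other 4 marks in iPSCs, and a lost peak at chr9:96852867-96853249 (383 bp, 21.9) did the same at D12.

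MicroRNA hairpins were read in the same way, a comparison chosen after values had been seen. MicroRNAs recognise targets mainly through the seed, bases 2 to 8. Of 1003 hairpins in RefSeq, 159 had H3K4me3 within 1 kb at both stages, 31 at D12 only and 54 in iPSCs only. Beside these, 600 of 21775 protein-coding genes were lost (2.76%) and 745 gained (3.42%). Some hairpins overlap or lie close together, such as Mir142 and Mir142b, so hairpins are not independent counts. H3K4me3 was read at the hairpin, and the mature sequences of 7 of them, from RefSeq (GRCm38.p6), are shown with the seed in capitals because 2 pairs among them share a seed.
miR-294-3p, kept: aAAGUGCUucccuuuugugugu
miR-302b-3p, kept: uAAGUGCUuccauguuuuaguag
miR-21a-5p, lost: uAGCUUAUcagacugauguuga
miR-10a-5p, lost: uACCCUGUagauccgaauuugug
miR-10b-5p, lost: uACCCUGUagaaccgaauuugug
miR-34b-5p, lost: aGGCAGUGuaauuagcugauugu
miR-142a-5p, gained: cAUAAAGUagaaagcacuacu

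The first pair come from the miR-290 and miR-302 clusters, which are expressed in pluripotent cells, and share a seed. Their hairpins were marked at D10, D12 and in iPSCs, so the mark was in place before the final step. miR-21a, abundant in fibroblasts, and miR-10a, inside a Hox cluster, had been marked from D0 to D12 and were lost. Hairpins that fibroblasts also mark went other ways, since Mir199b, Mir199a-1 and Mir130a, marked at D0, were gained and Mir22 and Mir152 were kept. miR-10b shares the seed of miR-10a, was marked at D10 and D12 and was lost too, as were the p53 targets miR-34b and miR-34c, marked from D0 to D12. miR-142, known from blood cells, was marked in iPSCs alone.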

How the data were processed

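Per the labels, 80 CUT&Tag libraries cover 5 marks at 8 stages, and 1 peak list per mark and stage was deposited. The submitters' processing notes name the mm10 build and 4 tools, deepTools 3.4.3, MACS2 2.1.2, Bowtie2 2.2.5 and fastp 0.20.1. How the 2 libraries of a stage entered their list, and against what control, was not given in the sources used. Deposited beside each peak are the authors' enrichment, a fold or ratio over local background, its −log10 p-value and the −log10 q-value derived from it by the authors. Here they ranked and filtered the peaks of each list separately. Off chromosomes 1 to 19, X and Y, 52 D12 peaks and 38 iPSC peaks were left out.

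The starting point was the D12 and iPSC lists of H3K4me3, with the 6 earlier H3K4me3 lists and the D12 and iPSC lists of the other 4 marks set beside them (16 lists). Genes came from RefSeq (GRCm38.p6, the coordinates of mm10). Protein-coding genes with 1 position were used, less 108 that lie before 3 Mb on chromosomes other than Y, where mm10 has no sequence. Of the 21775 genes, 17491 had annotated starts. Of the others, 2541 took the end that H3K4me3 marks in any list and the rest took both ends. A kept gene's width is the covered length of its gene-end peaks and of every peak joined to them by overlap between the lists. It can therefore also change where a separate peak is lost or gained. Depth was solved per list from fold enrichment and p-value under a Poisson model, within 0.01 on the −log10 scale for 96.2% to 99.9% of peaks. Overlap, width and depth steps were tested on simulated lists. Python 3.11.15, numpy 2.4.6, pandas 2.3.3, scipy 1.17.1 and matplotlib 3.10.9 were used.

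Intervals are 95%, Wilson for peaks and genes, and cover counting error only. Besides members of 21 lists (476 names, of which 5 had no match), named genes were the 10 gained and 10 lost genes of highest fold enrichment and the 5 most widened and 5 most narrowed, with an official symbol and 1 gene per peak. Not every gene that this rule or the lists name is reported here. The members and lists were chosen with earlier results of these data known. No test between stages was run, since each stage has 1 list.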

Additional observations from a re-analysis of the deposited data

How the results depend on the processing

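Alternatives were both lists at equal length, −log10 q of at least 10, overlap of at least 50% of each peak, peaks within 1 kb joined, no X and Y, a 2.5 kb window, both gene ends of every gene and, chosen after seeing the data, peaks of −log10 q of at least 10 held against the whole other list. In that order, 11 of 35, 13 of 35, 4 of 10, 27 of 35, 35 of 35, 16 of 25, 17 of 25 and 15 of 34 values stayed within their interval or within 1.5 times. At equal length 8077 peaks and 496 genes were gained, 1023 genes were lost, the median log2 width ratio was −0.12, 14.3% of lost and 7.80% of gained peaks lay near a gene end, 32.6% of gained peaks had H3K27ac in iPSCs, and the net change was 0 for pluripotency, 4 for germline, −3 for trophoblast, −6 for lineage regulators, −12 for protocadherins and −2 for imprinted genes, of which the trophoblast, lineage, protocadherin and imprinted values turned sign. This setting shortens only the iPSC list, so gains can only fall and losses only rise. With −log10 q of at least 10, 8219 peaks were gained and 938 genes lost, 20.1% of lost and 8.65% of gained peaks lay near a gene end, 55.8% of lost and 34.8% of gained peaks had H3K27ac at their own stage, 17.2% of gained peaks had H3K4me3 before D12, and the net change was 5 for germline, −3 for trophoblast, −8 for lineage regulators, −9 for protocadherins and −1 for imprinted genes, with the same lists turned. Held against the whole other list, 3921 peaks were lost and 7238 gained, 445 genes were gained, 14.9% and 7.72% lay near a gene end, 56.6% and 34.1% had H3K27ac, and the net change was 1 for pluripotency, 4 for germline and −3 for interferon genes. With 50% overlap the median ratio was −0.09, 54.8% of lost peaks had H3K27ac and 31.5% of gained peaks H3K4me3 before D12. With peaks joined the ratio was −0.09, 10.00% and 6.60% lay near a gene end, 52.0% and 26.6% had H3K27ac, and 12.8% of gained peaks had H3K4me3 before D12. In the 2.5 kb window 15.0% and 11.2% lay near a gene end, and the net change was −2 for fibroblast and 1 for epithelial genes, the latter turning sign. With both gene ends 8.53% of gained peaks lay near one, and the net change was −1 for primitive endoderm and 1 for glycolysis genes, the latter turning sign. Except where a setting's construction is named, the cause was not tested.

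No paired analysis was possible because each stage has 1 deposited list, and leaving out a library was not run for the same reason. Depth was known only as the solved background.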
